A study of Mus musculus with 4 samples.

Results

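The 4 genes described here, Thbs1, Tnc, Cyr61 and Ctgf, encode matricellular proteins, and their members in the data are all regions listed under these symbols in the deposited table of m6A-seq regions. They hold 16 of the 6697 distinct regions, and 4 of the 3884 genes. The genes were chosen by these same counts, having been picked with the table in view, so the values that follow describe them and test nothing about them. The study captured mRNA carrying N6-methyladenosine (m6A), a methyl mark on internal adenosines of RNA, from wild-type mouse embryonic stem cells and from Gsk-3 DKO cells, a double knockout of the kinases Gsk-3α and Gsk-3β. Both genotypes were of the strain E14K, were grown feeder-free on gelatin and were held for 14 days in the absence of LIF, a cytokine that keeps such cells self-renewing, before RNA was taken. Each genotype gave 1 m6A library and 1 input library. The table gave a count for each genotype and held 0 input columns. The labels do not say whether the double knockout was 1 clone.

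Matricellular proteins are secreted into the extracellular matrix, where they act less as scaffold than as signals: they bind integrins, proteoglycans, growth factors and proteases and change how cells adhere, spread and move. Thbs1 encodes thrombospondin 1, which can release TGF-beta from its latent complex, and Tnc encodes tenascin C, which weakens adhesion to fibronectin. Cyr61 and Ctgf (renamed Ccn1 and Ccn2) encode a pair of cysteine-rich CCN proteins that bind integrins and heparan sulfate. Both are among the most used readouts of the coactivators YAP and TAZ, which work through TEAD transcription factors, and Cyr61 is also an immediate early gene of the serum response.

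Per the labels' protocols, the antibody took whole mRNA and the RNA was broken into fragments afterwards. A region therefore shows where captured mRNA was read and does not place the methyl group within the transcript. With no input count beside it, a lower count in the double knockout cannot be split into less of the transcript, less methylation of it or less efficient capture. In such bulk samples, fewer cells of a type and less RNA per cell cannot be told apart either. With 1 library per genotype there is no replicate check, and every interval below covers counting error only.

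In all 16 regions the double-knockout library had fewer reads than the wild-type library. Wild-type counts ran from 46 to 947, all above the table's median of 43. Double-knockout counts ran from 0 to 32, and 8 regions had none. Each fold divides the wild-type count by that of the double knockout and multiplies by the 0.825 that the deposited ratio carries. A count of 0 is set at 3 counts, so that its fold is a lower bound. The exact 95% upper limit of a count of 0 is 3.69, so these bounds are less strict than the intervals. By that measure all 16 regions were lower by 10-fold or more, where 52.5% of all regions in the table were. A region with no double-knockout reads reaches 10-fold at this floor only from 37 wild-type reads on. All 8 such regions here had more, whereas wild-type counts in the table start at 15. The 16 regions and the 52.5% are therefore not alike in depth. With a median-ratio factor in place of that constant, which centres the regions with reads in both libraries by construction, 2 of the 16 were. The 8 with no double-knockout reads stand beside 50.5% of all regions and 36.1% of those that overlap coding exon or UTR, as all 16 do. These shares are not matched to the 16 in depth either. Since the table lists 0 regions with an equal or higher count in the double knockout, the direction was fixed by the list. What differs between the 4 genes is the size of the gap and the number of reads left in the double knockout.

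**Figure D1:**
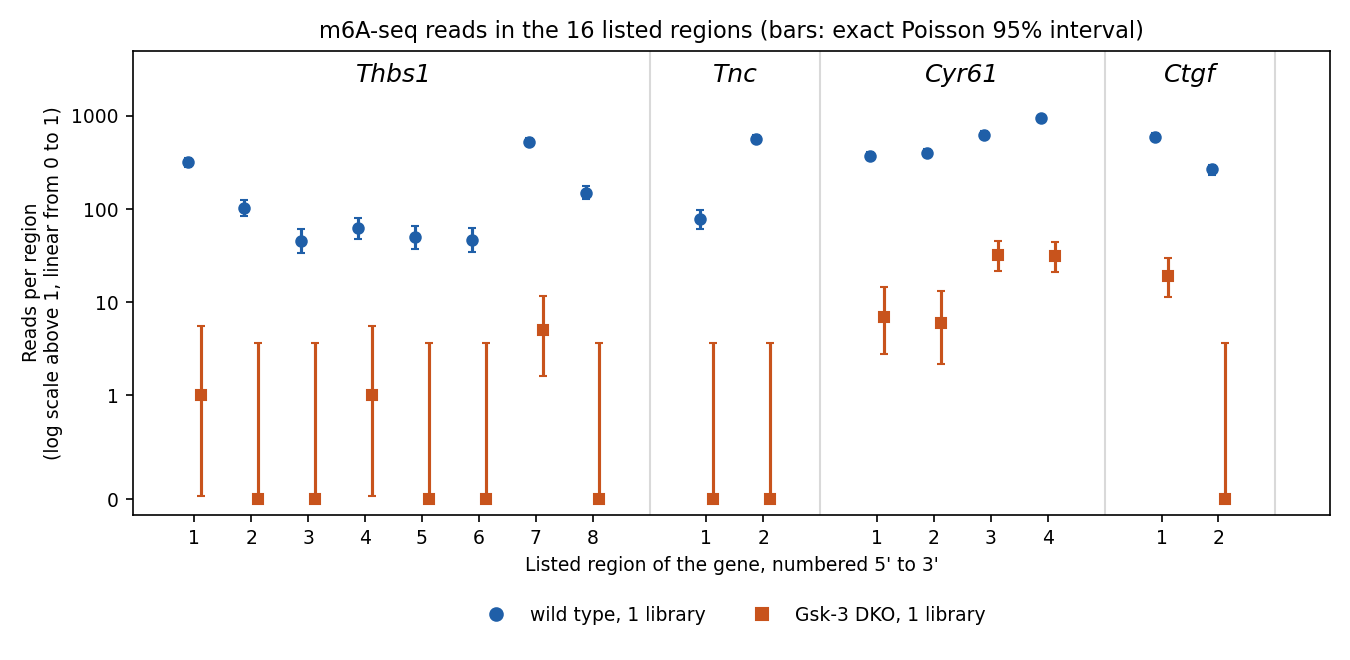
Reads in each listed region (horizontal axis, numbered 5' to 3' within each gene) on an axis that is logarithmic above 1 and linear from 0 to 1, for wild type (circles) and Gsk-3 DKO (squares), 1 library each, with exact Poisson 95% intervals. Wild-type counts lie between 46 and 947, Tnc has no double-knockout reads, and the 4 regions of Cyr61 keep 6 to 32.

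Thbs1 was the gene with the most regions, 8, and they ran along most of the gene, which spans chr2:118111876-118127133 in RefSeq. Its counts were highest in the longer 3'UTR region and, after it, in the first coding region, and they were lowest in between. The most 5' region, chr2:118112951-118113598, annotated as intron and coding exon and centred 1352 bases from the transcription start, had 318 reads in wild type (95% interval 284 to 355) and 1 in the double knockout (0.025 to 5.57). The ratio was 262, with a counting interval of 46.7 to 10392, so its size is poorly fixed from above. The next regions, chr2:118114643-118114873 and chr2:118115831-118115999, had 103 and 46 reads against 0 in each.

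Further along the Thbs1 gene, chr2:118120203-118120371 had 62 reads against 1, a ratio of 51.1 (8.84 to 2052). The next of the same annotation, chr2:118120845-118120997 and chr2:118123255-118123423, had 50 and 47 reads, each against 0. In the 3'UTR, chr2:118125042-118125885 held 526 reads against 5, a ratio of 86.8 (36.9 to 268). The double knockout thus had reads in 3 of the 8 regions, and never more than 5. The last region, chr2:118126218-118126497, also in the 3'UTR and 636 bases short of the gene's end, had 150 reads against 0, at least 41.2-fold lower.

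Read density in wild type ran from 0.272 to 0.623 reads per base of region along Thbs1. It was lowest in chr2:118115831-118115999 and highest in the longer 3'UTR region. The 3'UTR region alone held 40.4% of the gene's listed wild-type reads. Regions annotated with an intron include intronic bases, so their reads per base of exon may be higher. Summed over the 8 regions, Thbs1 had 1302 reads (1232 to 1375) against 7 (2.81 to 14.4), a ratio of 153 (74.2 to 382).

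Tnc was the member with no double-knockout read at all. It had 2 regions, centred 26808 and 29496 bases into a gene of 87231 bases on chromosome 4 (63959785 to 64047015). The deeper, chr4:64016851-64018188, lay wholly in coding exon, was 1338 bases long and had 570 wild-type reads (524 to 619) against 0, which makes it at least 157-fold lower. The other, chr4:64020008-64020406, annotated as intron and coding exon, had 78 (61.7 to 97.3) against 0, at least 21.4-fold lower. Their sum was 648 against 0, at least 178-fold lower, and 88.0% of it came from the deeper region. The counting interval of that sum starts lower, at 144-fold. A count of 0 over these 1737 bases, set at 3 counts, stands for 1.73 double-knockout reads per kilobase, where wild type had 0.373 reads per base. No region was listed in the 57066 bases between the deeper region and the 3' end of the gene.

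Both Tnc regions appear a second time in the table, under the long non-coding gene 8030451A03Rik, whose RefSeq span covers them completely (399 and 1338 bases). The deposited distances from the transcription start fall from 40266 to 37578 between the regions for 8030451A03Rik and rise from 26808 to 29496 for Tnc, so the genes run in opposite directions. Whether the counting used strand is not given in the sources used here, and reads of Tnc and of this antisense gene cannot be told apart.

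Cyr61 had the most listed reads of the 4 in both libraries, and its summed fold was the smallest by value, with an interval that overlaps that of Ctgf. Its 4 regions covered 56.2% of a short gene (chr3:145646971-145649985, 3015 bases, on the minus strand). From the 5' end, chr3:145649680-145649962, which takes in 5'UTR, coding exon and intron, had 369 reads (332 to 409) against 7 (2.81 to 14.4), a ratio of 43.5 (20.9 to 109). The second, chr3:145649144-145649441, had 401 against 6, a ratio of 55.1 (25.1 to 151). The third, chr3:145648129-145648873, had 631 against 32, a ratio of 16.3 (11.4 to 24.0). The last, chr3:145647374-145647740, spanning the end of the coding sequence and the 3'UTR, had 947 (888 to 1009) against 31 (21.1 to 44.0), a ratio of 25.2 (17.6 to 37.3).

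By counting error only, the ratio of Cyr61 differed between regions: the counting interval of the third does not meet that of the second, while that of the last overlaps all others. The second rests on 6 double-knockout reads, and 1 library per genotype gives no replicate check of this difference. Per kilobase of region, the double knockout had 24.7 reads (9.94 to 51.0) in the first, 20.1 (7.39 to 43.8) in the second, 43.0 (29.4 to 60.6) in the third and 84.5 (57.4 to 119.9) in the last. Wild type had 1.30, 1.35, 0.847 and 2.58 reads per base in the same order. Both libraries were densest at the 3' end, and the third region, the sparsest in wild type, was the second densest in the double knockout. Summed, Cyr61 had 2348 reads against 76 (59.9 to 95.1), a ratio of 25.5 (20.3 to 32.5). The same 4 regions are also listed as upstream of the gene Gm17501, at distances of -491 to -2755 bases from its start.

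The first Cyr61 region begins 23 bases downstream of the RefSeq transcription start, so its reads reach nearly to the 5' end of the mRNA. The sequence just before that start is shown because it holds the kind of element through which Cyr61 is usually read as a YAP and TEAD target. Of the 4 genes, Cyr61 and Tnc had entries in the RefSeq promoter table of GRCm38.p6. Thbs1 and Ctgf are named only. The 250 bases before the start are given 5' to 3' on the gene's strand, for Cyr61 from chr3:145649986-145650235 and for Tnc, at the more upstream of its 2 listed starts, from chr4:64047016-64047265, both on the minus strand. Capitals mark the TEAD core CATTCC and the TATA motif TATAAA.
Cyr61: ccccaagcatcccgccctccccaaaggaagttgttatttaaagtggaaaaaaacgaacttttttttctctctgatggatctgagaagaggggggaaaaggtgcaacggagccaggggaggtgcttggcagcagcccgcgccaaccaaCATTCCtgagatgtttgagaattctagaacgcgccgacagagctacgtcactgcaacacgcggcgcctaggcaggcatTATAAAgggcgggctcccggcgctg
Tnc: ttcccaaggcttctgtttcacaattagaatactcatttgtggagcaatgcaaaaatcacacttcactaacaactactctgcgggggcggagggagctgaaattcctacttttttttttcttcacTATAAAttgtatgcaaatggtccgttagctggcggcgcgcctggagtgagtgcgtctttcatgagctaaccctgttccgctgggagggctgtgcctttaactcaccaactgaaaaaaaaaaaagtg

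In Cyr61, CATTCC begins 103 bases before the start and TATAAA 25 bases before it, both on the gene's strand. In Tnc, TATAAA begins 126 bases before the start, and CATTCC was not found on either strand. The AP-1 motif TGANTCA was in neither window. Searched on both strands in the 250 bases before all 32851 starts of the table, CATTCC was present in 12.6%, TATAAA in 12.4% and TGANTCA in 6.75%. These matches describe letters in the genome and not binding. No region of Tnc lay within 26609 bases of this start, whereas the most 5' regions of Cyr61 and Ctgf both reached into the 5'UTR.

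Ctgf resembled Cyr61 at its 5' end and Tnc further along. Its 2 regions lay in the 5' part of a gene of 3242 bases (chr10:24595442-24598683), and none was listed in the last 2066 bases. The first, chr10:24595500-24595818, takes in 5'UTR, coding exon and intron and had 600 wild-type reads (553 to 650.0) against 19 (11.4 to 29.7), a ratio of 26.0 (16.5 to 43.6). The second, chr10:24596332-24596617, annotated as intron and coding exon, had 266 (235 to 299.96) against 0, at least 73.1-fold lower. All 19 double-knockout reads were thus in the first region, which held 69.3% of the wild-type reads.

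In wild type the first Ctgf region had 1.88 reads per base and the second 0.930. In the double knockout the first had 59.6 reads per kilobase (35.9 to 93.0). The second, with its count of 0 set at 3 counts, stands at 10.5, and its exact upper limit is 12.9. Of the first region, 304 of 319 bases also lie within the RefSeq span of the long non-coding gene Gm15270, and 0 bases of the second do. Reads of Ctgf and Gm15270 in the first region cannot be told apart without strand. Summed, Ctgf had 866 reads against 19, a ratio of 37.6 (23.9 to 62.7), a value that joins 2 regions with very different ratios.

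**Figure D2:**
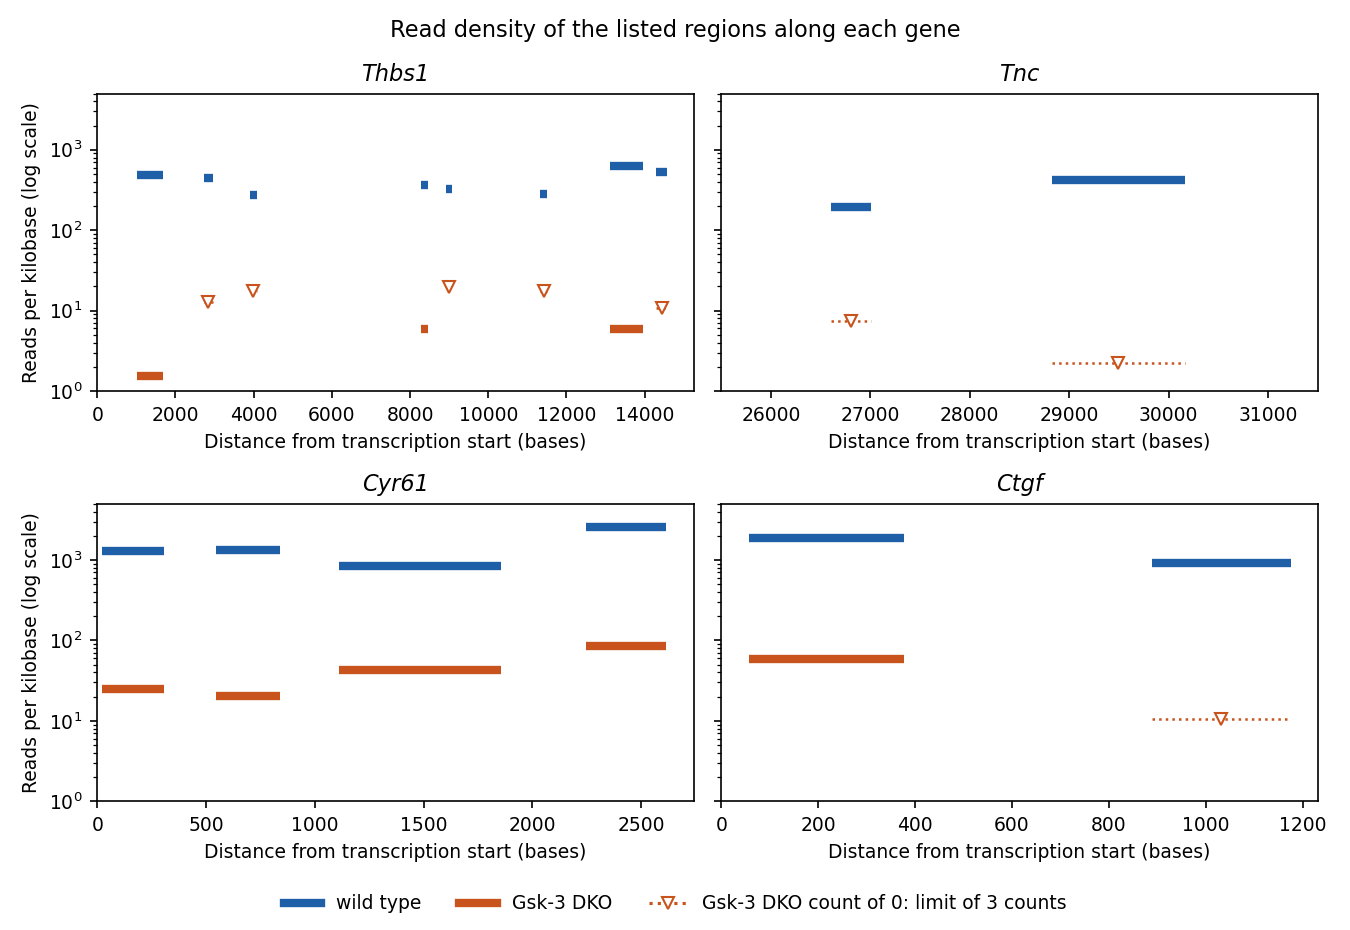
Reads per kilobase of region (logarithmic axis) against distance from the transcription start in bases, for wild type and Gsk-3 DKO, each bar as long as its region. Open triangles on dotted lines mark 3 counts where the double-knockout count was 0. They are called limits here, although the exact 95% upper limit of a count of 0 is 3.69. Cyr61 keeps double-knockout reads along its whole length, Ctgf keeps them in its first region (59.6 per kilobase), Thbs1 has 1.54 to 5.92 per kilobase in the 3 regions with double-knockout reads and limits of 10.7 to 19.6 in the others, and Tnc has limits only.

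By summed counts the CCN genes lay below the other two. Cyr61 (25.5, 20.3 to 32.5) and Ctgf (37.6, 23.9 to 62.7), the CCN genes, had counting intervals that overlap. Thbs1 (153, 74.2 to 382) and Tnc (at least 178) lay higher, and the interval of Thbs1 met neither of the CCN genes. Thbs1 and Tnc cannot be ordered against each other. The place of Ctgf rests on summing: as a mean over regions its log2 value of double knockout over wild type was -6.72, beside -6.65 for Thbs1, -4.91 for Cyr61 and -8.45 for Tnc. All 4 genes were lower by 10-fold or more, as were 59.5% of all listed genes by summed counts, and 1 of the 4 had a sum of 0, beside 42.3% of all. Wild-type reads per base were 1.39 for Cyr61 and 1.43 for Ctgf, against 0.489 for Thbs1 and 0.373 for Tnc. The median over all regions was 0.219. Together the 4 genes held 0.900% of the wild-type reads in listed regions and 0.377% of the double-knockout reads.

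Because a ratio can be large only where there are many wild-type reads, each gene was also set beside genes whose wild-type sum was within 25% of its own. For Thbs1, 1 of 27 such genes had a larger fold or bound, and their median was 14.8. For Tnc, 3 of 73 had a larger one (median 13.5), and 1 of the 73 had no double-knockout reads. For Cyr61 it was 2 of 13 (median 14.6) and for Ctgf 13 of 57 (median 13.2). Among regions of like wild-type count, the deep coding region of Tnc was outranked by 2 of 79, and 2 of the 79 had no double-knockout reads. The first Thbs1 region was outranked by 0 of 202, and the longer 3'UTR region by 8 of 92. The shallower Thbs1 regions without double-knockout reads stood lower, with 715 of 1584 above the third, 683 of 1538 above the fifth and 688 of 1528 above the sixth. The third Cyr61 region, with the smallest ratio of that gene, was near the middle, with 37 of 76 above it. So was the last Cyr61 region, the deepest of the 16, with 19 of 38 above it. Its ratio was 25.2, beside a median of 24.3. The Cyr61 regions with 369 and 401 wild-type reads had 51 of 170 and 28 of 132 above them. For the Ctgf regions with 600 and 266 it was 27 of 75 and 44 of 269. For the shallower Tnc region it was 389 of 1163. For the Thbs1 regions with 103, 62 and 150 it was 239 of 855, 66 of 1351 and 119 of 575. These placements use the counts by which the genes were chosen and are descriptions.

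Genes near to each member in summed log2 reads of both libraries were found over these 2 libraries only, with distance in log2 units. For Thbs1 they were Csrnp1 (862 against 8, distance 0.62), the insulin receptor adaptor Irs1 (846 against 5, 0.77) and Ccdc102a (840 against 5, 0.77). For Tnc, after 8030451A03Rik with the same reads, came 4932441J04Rik (457 against 0 in upstream regions, 0.50). For Cyr61, after Gm17501 with the same reads, came Ahdc1 (1910 against 84, 0.33) and Tsc22d1 (2702 against 104, 0.49). For Ctgf they were 2610015P09Rik (890 against 19 in an intron, 0.039) and Trnan-guu (744 against 20 in an upstream region, 0.23).

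**Figure D3:**
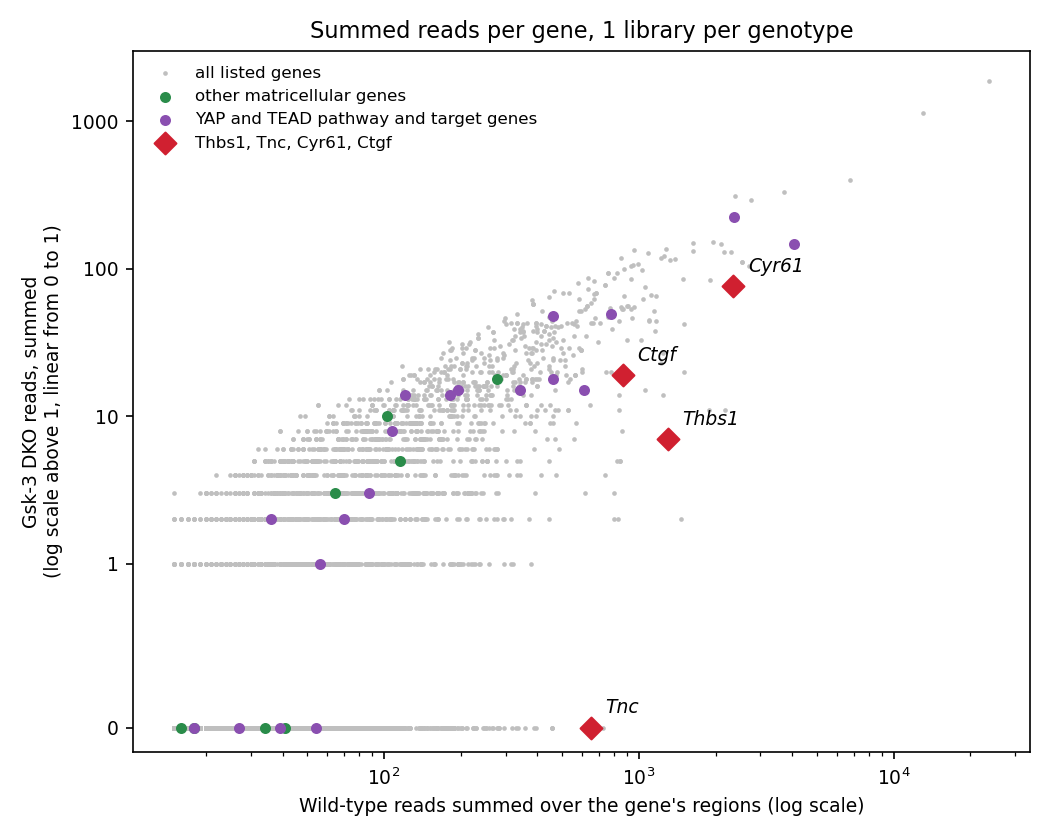
Gsk-3 DKO reads against wild-type reads, each summed over a gene's listed regions (logarithmic axes, the vertical one linear from 0 to 1), 1 point per gene and 1 library per genotype. Thbs1 (1302 against 7) and Tnc (648 against 0) lie along the lower right edge of the cloud, and Cyr61 (2348 against 76) and Ctgf (866 against 19) lie nearer to the other genes.

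Of 30 other matricellular genes 8 were listed (26.7%, where 15.8% of protein-coding genes were). By summed counts 4 of the 8 were at least 10-fold lower (59.5% of all listed genes) and 4 had no double-knockout reads (42.3% of all), so neither share stands out. The median fold or bound was 10.3 against 12.3 over all listed genes. It falls between the lower bounds of Tnr (at least 9.35) and Spock1 (at least 11.3), so depth and the floor set it. The deepest were the testican gene Spock2 with 277 reads against 18 (12.7, 7.88 to 21.7), the fibulin gene Fbln2 with 116 against 5 (19.1, 7.97 to 60.0), the collagen-binding Sparc with 103 against 10 (8.50, 4.44 to 18.2) and Ccdc80 with 64 against 3 (17.6, 5.76 to 87.6). Sequence relatives had fewer wild-type reads still. The tenascin gene Tnr had 34 reads against 0, and the CCN genes Wisp1 and Wisp2 had 18 and 16 against 0. Nov, Wisp3, Thbs2, Thbs3 and Thbs4 were not listed.

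The YAP and TEAD list, to whose targets Cyr61 and Ctgf belong, had 19 of 36 genes listed, where 15.8% of protein-coding genes were. Of these 19, 14 were at least 10-fold lower (59.5% of all listed genes) and 4 had no double-knockout reads (42.3% of all), with a median of 13.1 against 12.3. Jub (Ajuba), a LIM protein that binds the Lats kinases, had 4043 reads against 147 (22.7, 19.2 to 26.9), an interval that overlaps that of Cyr61. Amotl2, an angiomotin that binds YAP and is itself a target, had 2363 against 224 (8.70, 7.58 to 10.02). At nearly the wild-type sum of Cyr61 it kept more double-knockout reads, and its interval does not meet that of Cyr61. The guanine nucleotide exchange factor gene Arhgef17 had 781 against 49 (13.1, 9.85 to 17.9), and the kinase gene Lats2 612 against 15 (33.7, 20.2 to 60.5).

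Among integrins and other receptors of matricellular proteins, 9 of 28 were listed (15.8% of protein-coding genes). At least 10-fold lower were 6, near the 59.5% of all listed genes, and 1 had no double-knockout reads, beside 42.3% of all (median 12.1). The integrin gene Itga3 had 933 reads against 53 (14.5, 11.0 to 19.5), and Itga5, whose product is the fibronectin receptor chain, had 502 against 33 (12.5, 8.82 to 18.4). The intervals of both end below the lower limits of Cyr61 (20.3) and Thbs1 (74.2). Ptprb, a phosphatase of endothelium, had 125 against 9 (11.5), and the collagen-binding Itga1 123 against 4 (25.4). The genes of the αv and β1 chains (Itgav, Itgb1) and of the thrombospondin receptors Cd36 and Cd47 were not listed.

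Of 24 TGF-beta activation and signalling genes 10 were listed (41.7%, where 15.8% of protein-coding genes were). At least 10-fold lower were 6 and without double-knockout reads 4, close to the 59.5% and 42.3% of all listed genes (median 10.9). The deepest were the ligand gene Bmp4 (219 against 5, 36.1), the receptor genes Acvr1 (199 against 0, at least 54.7) and Tgfbr2 (194 against 7, 22.9), and the repressor gene Ski (118 against 9, 10.8). Tgfb1, Tgfb2 and Tgfb3, the ligands that thrombospondin 1 acts on in latent form, were not listed.

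With lower bounds taken at their values, structural matrix genes had the highest median of the 6 lists, 27.1, with 8 of 30 listed (26.7%, where 15.8% of protein-coding genes were). At least 10-fold lower were 6 and without double-knockout reads 4, beside 59.5% and 42.3% of all listed genes. The fibrillar collagen genes Col1a1 and Col5a1 had 248 and 156 reads against 0 (lower by at least 68.2-fold and by at least 42.9-fold). The fibronectin gene Fn1 had 237 against 8 (24.4, 12.2 to 57.3), and the agrin gene Agrn 145 against 2 (59.8). In the serum response and actin list, 19 of 28 genes were listed (67.9%, where 15.8% of protein-coding genes were). At least 10-fold lower were 12, near the same 59.5%, and 5 were without double-knockout reads, below the 42.3%. Its median, 25.8, is the lower bound of Cnn2 (94 against 0). Lower bounds enter both medians, so the order of these lists is not settled. Its members did not move alike: the filamin genes Flnc (1888 against 11, 142) and Flna (1224 against 23, 43.9) had large folds, and the immediate early genes Ier2 (1223 against 119, 8.48, 7.02 to 10.3) and Jun (737 against 77, 7.89, 6.24 to 10.1) small ones. Cyr61, an immediate early gene as well, had an interval above those of Ier2 and Jun.

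**Figure D4:**
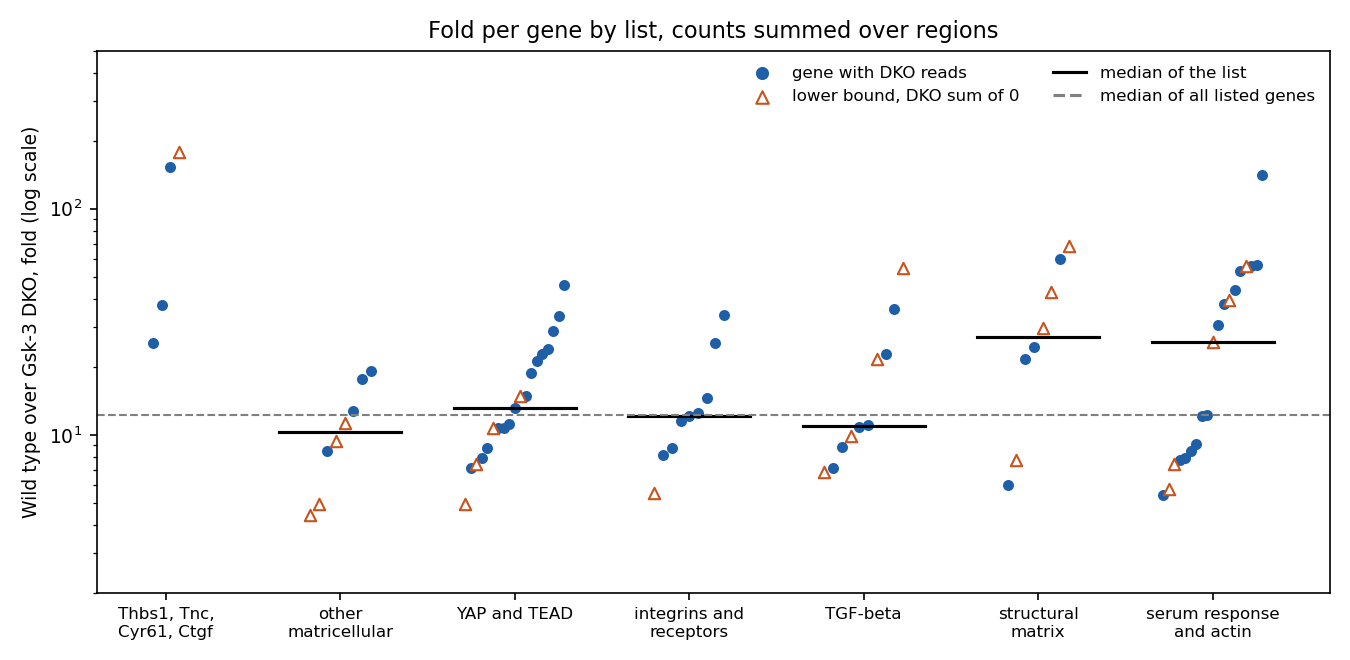
Wild type over Gsk-3 DKO per gene from counts summed over regions (logarithmic axis), for the 4 genes and the 6 lists; open triangles are lower bounds for genes with a double-knockout sum of 0, short lines are list medians and the dashed line is the median of all listed genes (12.3). The list medians, with lower bounds taken at their values, run from 10.3 to 27.1, and the 4 genes lie between 25.5 and at least 178.

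As a pair of matrix families for comparison, laminin chain genes had 32 regions under 6 genes, of which 13 (40.6%, beside 52.5% of all regions) were at least 10-fold lower, with sums of 3736 against 368, a ratio of 8.37. Collagen genes had 42 regions under 17 genes, 26 (61.9%) at least 10-fold lower, with sums of 4110 against 222, a ratio of 15.3. The regions of the 4 matricellular genes summed to 5164 against 102, a ratio of 41.8, where all regions of the table gave 17.5. With 1 library per genotype these differences have no test.

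Several of the 4 genes are known from mesenchymal and vascular cells, so markers of those types were read beside them. Of all protein-coding genes 15.8% were listed. Of embryonic stem cell markers 4 of 10 were listed, with Esrrb at 187 reads against 12, Pou5f1 at 55 against 6, Utf1 at 46 against 1 and Lin28a at 19 against 0, while Nanog and Sox2 were not. Smooth muscle markers (3 of 6 listed) summed to 547 against 0 and fibroblast markers (2 of 10, chiefly Col1a1) to 263 against 0. Endothelial markers (4 of 8) summed to 587 against 5. Neural markers (5 of 10) summed to 3799 against 15, and parietal and primitive endoderm markers (9 of 13) to 5351 against 555. Of these 9 endoderm markers 3 were at least 10-fold lower (59.5% of all listed genes), and their median fold or bound was 7.85. Thbd, at 456 against 0, was the 1 among them with no double-knockout reads, and the deepest, Lamc1, had 2760 against 290 (7.85). Most of the neural sum came from Nes (2184 against 11) and Sox11 (1467 against 2). The other listed neural markers, Notch1, Sox3 and Tubb3, had folds or bounds of 15.4, 15.1 and 15.3, near the 12.3 of all listed genes. The direction of every sum was fixed by the list. The smooth muscle, fibroblast, endothelial and neural sums had few double-knockout reads, as did Thbs1 and Tnc, but rest on few deep genes. Their part in the result was not tested.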

How the data were processed

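The data were 1 table of regions from m6A-seq of wild-type and Gsk-3 DKO cells, 1 library each. Bowtie2, DESeq and the build mm9 are named in the submitters' processing notes, but no peak caller and no rule for listing a region (both not given in the sources used here). The deposited counts are whole reads per region with no stated normalization. Their headers name only the genotype, and they were assigned to the m6A libraries, whose titles alone carry the name of the assay. The deposited ratio divides the counts, wild type by double knockout, times 0.825, and is blank where the divisor is 0. The deposited signal (read density) is wild-type reads per base. Deposited distances are in bases from the transcription start to a region's centre. The table held no library totals. Over the listed regions, counts summed to 573971 in wild type and 27072 in the double knockout, which is not sequencing depth.

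The 7562 rows gave 6697 distinct regions. All 16 regions of the 4 genes lay within those genes in the RefSeq table of GRCm38.p6, so coordinates are printed as deposited and described as matching GRCm38. Counts were summed over a gene's distinct regions. The pseudocount on the log2 scale was 0.5. Counts have exact Poisson 95% intervals and ratios exact Clopper-Pearson ones, tested on simulated counts. PCR reads that carry no molecular identifier need not be independent molecules, and the intervals and the floor of 3 counts cover counting error only. Analyses used Python 3.11.15, pandas 2.3.3, SciPy 1.17.1 and matplotlib 3.10.9.

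The 4 genes and the lists were chosen with earlier results of these data known. Named were all regions of the 4 genes, the up to 4 deepest members of each list by wild-type reads, and the 3 genes nearest to each of the 4. Some genes that this rule takes are not reported here. Other genes, such as Tnr, Wisp1 and Wisp2, were picked after their values were seen, as were the markers printed singly. Alternatives changed scaling, pseudocount, floor, the value per gene and the regions used.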

Additional observations from a re-analysis of the deposited data

How the results depend on the processing

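A median-ratio factor, which centres the regions with reads in both libraries by construction, moved every log2 value of double knockout over wild type up by 3.77: Thbs1 went from -7.16 to -3.40, Tnc from -10.06 to -6.30, Cyr61 from -4.66 to -0.90 and Ctgf from -5.20 to -1.43. With it, an alternative added after seeing the data, 2 of the 16 regions were at least 10-fold lower. As the mean over its 2 regions Ctgf was -6.72, since both regions then weigh alike, and so lay beside Thbs1 (-6.65) and apart from Cyr61 (-4.91). The other 55 of 61 alternatives stayed within counting error (for list medians, within the medians of their members' counting limits, which are wide) or, for counts, within 1.5 times. Several of the 55 could not differ from the main value. All 16 regions are exonic, have 1 row each under their symbol and reach the table's median mean count. For the 4 genes, limiting to exonic or deeper regions or counting every row thus repeats the same numbers and is no check. At a pseudocount of 2 the list medians still moved by more than 1.5-fold in 5 of 6 lists: serum response and actin from -5.15 to -3.72, TGF-beta from -4.73 to -3.72, other matricellular from -4.45 to -3.48, structural matrix from -5.57 to -4.61 and YAP and TEAD from -4.37 to -3.66. The log2 value of Tnc depends on the pseudocount (-11.06 at 0.25 and -8.07 at 2), since its count is 0. No paired analysis was possible because each genotype had 1 library, and no replicate could be left out. The double-knockout counts limit precision: of the 16 regions, 8 had none.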

Other observations

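Members of the YAP and TEAD list beyond those named above were all lower in the double knockout, as every listed region is. The coactivator gene Yap1 had 121 reads against 14 (7.13, 4.09 to 13.4) and its partners Tead1 and Tead3 had 182 against 14 (10.7, 6.23 to 20.0) and 70 against 2 (28.9, 7.70 to 243). The intervals of Yap1 and Tead1 both end below the lower limit of Cyr61 (20.3). The interval of Tead3 overlaps that of Cyr61. The target genes Crim1 (462 against 18, 21.2, 13.2 to 36.0) and Igfbp3 (87 against 3, 23.9, 7.92 to 118) also overlap it, whereas Ptpn14, a phosphatase that restrains YAP, had 461 against 48 (7.92, 5.88 to 10.9). The genes of this paragraph and the next were chosen once their values had been seen.

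Among genes tied to actin and serum response factor, Mkl1 and Mkl2, coactivators of that factor, had 341 reads against 5 (56.3, 23.9 to 174) and 135 against 2 (55.7, 15.1 to 464). Srf itself had 44 against 4 (9.07, 3.30 to 34.8). The actin-binding Vcl had 223 against 6 (30.7, 13.9 to 84.4), and the calponin gene Cnn2 and the transgelin gene Tagln2 had 94 and 144 against 0.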
